A study of Mus musculus with 6 samples.

Results

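Cps1 and 7 further enzymes of the urea cycle and of arginine use (Nags, Otc, Ass1, Asl, Arg1, Arg2 and Odc1) are described here, 8 of the 24453 gene symbols counted. Cps1 was chosen from these data, for the second largest fall among the called genes of the comparison below, and the other 7 for their place in the same pathway. The values of Cps1 are therefore a description without a test. The question put to the other 7 is whether they share its fall.

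RNA was sequenced from hair follicle cells of P0 mouse back skin, isolated by cell sorting, where P0 is the day of birth. The mutant group, HF_I53A, holds 3 libraries of the genotype Ring1a-/- Ring1b-/I53A, and HF_CTL holds 3 control libraries, for which the sources used here state no alleles. Ring1a (gene Ring1) and Ring1b (gene Rnf2) are the ubiquitin ligases of Polycomb repressive complex 1, which keeps developmental genes silent, and the I53A change is known to impair ligase activity without preventing assembly of the complex. Loss of Ring1a, a null allele of Ring1b and the I53A allele occur together in the mutants, and no group separates them.

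The urea cycle turns ammonia into urea, and the complete cycle is known from liver. In mitochondria, NAGS makes N-acetylglutamate, the activator that CPS1 needs to build carbamoyl phosphate from ammonia and bicarbonate, and OTC joins this to ornithine to give citrulline. In the cytosol, ASS1 and ASL turn citrulline into arginine, arginase splits arginine into urea and ornithine, and ODC1 can draw ornithine off into putrescine, the start of the polyamines that growing cells need.

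Library totals ran from 14335156 to 18811587 counts. Levels are in CPM, the counts of a gene relative to the size of its library, so that 1 CPM was 14.7 to 18.2 reads, with library sizes adjusted by TMM, which assumes that most genes do not change. Ring1 was at 3.23, 7.10 and 4.88 CPM in HF_I53A, against 16.8, 22.1 and 21.1 CPM in HF_CTL, and it fell in the mutants (log2 fold change -1.98, SE 0.33, edgeR's quasi-likelihood test, with Benjamini-Hochberg adjusted p = 0.0113). Rnf2 was at 67.1 ± 3.68 CPM in HF_I53A and 59.8 ± 6.93 CPM in HF_CTL (SD, n = 3 each, as for all means below; adjusted p = 0.736). All 14 follicle marker genes had reads, with summed levels of 3356 to 4270 CPM in HF_I53A and 3580 to 3983 CPM in HF_CTL. Of these 14, 2 fell, where 0.404% of all tested genes fell: Lgr5, at 83.7 ± 1.98 CPM in HF_I53A and 178 ± 37.7 CPM in HF_CTL (edgeR, adjusted p = 0.0125), and Lrig1, at 141 ± 5.43 CPM in HF_I53A and 242 ± 4.09 CPM in HF_CTL (adjusted p = 0.0135), both follicle stem cell genes. With the replicate number as a block 3 of the 14 rose and 5 fell, where 6.09% of all tested genes rose and 3.29% fell. Without 1 library, edgeR no longer called Lgr5 (without mutant 1, mutant 2 or control 2) or Lrig1 (without mutant 1, mutant 2 or control 1), with adjusted p up to 0.0684 and 0.0792. Markers of differentiated interfollicular epidermis, 9 of 9 with reads, summed to 2802 to 4538 CPM in HF_I53A and 4275 to 5727 CPM in HF_CTL. Krt1 made up most of this sum, at 2126 ± 510 CPM in HF_I53A and 3358 ± 764 CPM in HF_CTL (edgeR, adjusted p = 0.195, and 0.00154 with the block). Counted by gene, 7 of the 9 had a positive log2 fold change and 2 a negative one, with a median of 0.38. Krtdap was higher, at 313 ± 60.1 CPM in HF_I53A and 203 ± 37.9 CPM in HF_CTL (edgeR, adjusted p = 0.145, and 0.00578 with the block). The surface proteins of the sort are encoded by Epcam, at 198 and 162 CPM in HF_I53A and HF_CTL, Itga6, at 756 and 734 CPM, and Ly6a (Sca1), at 1.23 and 0.852 CPM. The protocol text sorts interfollicular epidermis as Sca1-positive cells, while every sample is labelled hair follicle, and no follicle gate is stated. The part of either cell population in the values below was not tested.

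The entry enzymes of the cycle are NAGS, CPS1 and OTC. Cps1 (chromosome 1, 67123026 to 67231259, plus strand, GRCm38) had 3, 2 and 1 reads in HF_I53A, against 90, 88 and 137 reads in HF_CTL. These counts are 0.164, 0.119 and 0.0669 CPM in HF_I53A, against 6.13, 5.52 and 7.78 CPM in HF_CTL. Every mutant library was far below every control library, and each mutant count was at or below the 3 reads that a count of 0 still allows. Mean levels were 0.117 ± 0.0488 CPM in HF_I53A and 6.48 ± 1.17 CPM in HF_CTL. The fitted log2 fold change was -5.68 (SE 0.59, 95% interval -6.99 to -4.36). This interval makes no allowance for the choice of Cps1 by its large fall, which favours an estimate that is too large. Over the summed reads, 6 in HF_I53A and 315 in HF_CTL, the ratio of CPM was 0.0184, with an exact 95% interval of 0.00670 to 0.0405 that covers counting error only. In bulk samples such as these, fewer cells that express a gene and less of its RNA per cell cannot be told apart.

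Cps1 was taken from the 8 largest falls among called genes whose groups were separate, where the higher group reached at least 5 CPM, unnamed gene models left out. The smallest fall inside that limit was Tgm5 at -2.52 on the log2 scale, and the next outside it was Steap4 at -2.51. Of the 14345 genes that passed the low-count filter, 3.0% were called at an adjusted p under 0.05, made up of 2.59% called as higher and 0.404% called as lower in HF_I53A.

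Nags (chromosome 11, 102145513 to 102149477, plus strand) was near the floor throughout, with 0, 8 and 0 reads in HF_I53A, against 9, 3 and 5 reads in HF_CTL. Its mean levels were 0.159 ± 0.275 CPM in HF_I53A and 0.362 ± 0.223 CPM in HF_CTL, and the groups overlap. Nags did not pass the low-count filter, and with no filter its log2 fold change was -1.14 (SE 1.63, edgeR adjusted p = 0.814), so a change was not detectable at this depth. An antisense gene, Gm11586, overlaps Nags, and without a stated strand setting its reads cannot be separated. Otc (chromosome X, 10252305 to 10321024, plus strand) had 0 reads in all 6 libraries, which allows up to 0.164 to 0.204 CPM per library. In the controls, where Cps1 had 88 to 137 reads, the enzyme that makes the activator of CPS1 thus had 3 to 9 reads and the enzyme that uses its product had 0.

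Ass1 (chromosome 2, 31470207 to 31520672, plus strand), which joins citrulline and aspartate, was likewise listed at 0 in all 6 libraries. This 0 is uncertain, because a processed pseudogene, Gm5424 (chromosome 10, 62071123 to 62072362, plus strand), holds a near-identical copy, and Gm5424 was listed at 0 too. Of the 1597 stretches of 100 nucleotides (the read length) in the Ass1 transcript, 622 (38.9%) occur letter for letter in Gm5424, all within the coding sequence.

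The remaining stretches of Ass1 occur in no other annotated transcript, and the gene still had no read. Among protein-coding genes with at least 90% of their stretches shared with another gene, 216 of 269 (80.3%) were at 0 in all 6 libraries, against 2191 of 18398 (11.9%) among those with under 10% shared. These classes were formed by comparing only the longest transcript of each gene. Ass1, at 38.9% by the count above, lies between them, so neither share applies to it. Cps1, Nags, Otc, Asl, Arg1 and Arg2 shared none of their stretches. The sources used here do not state how reads with several matches were treated, and the part of this in the 0 of Ass1 was not tested.

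**Figure D1:**
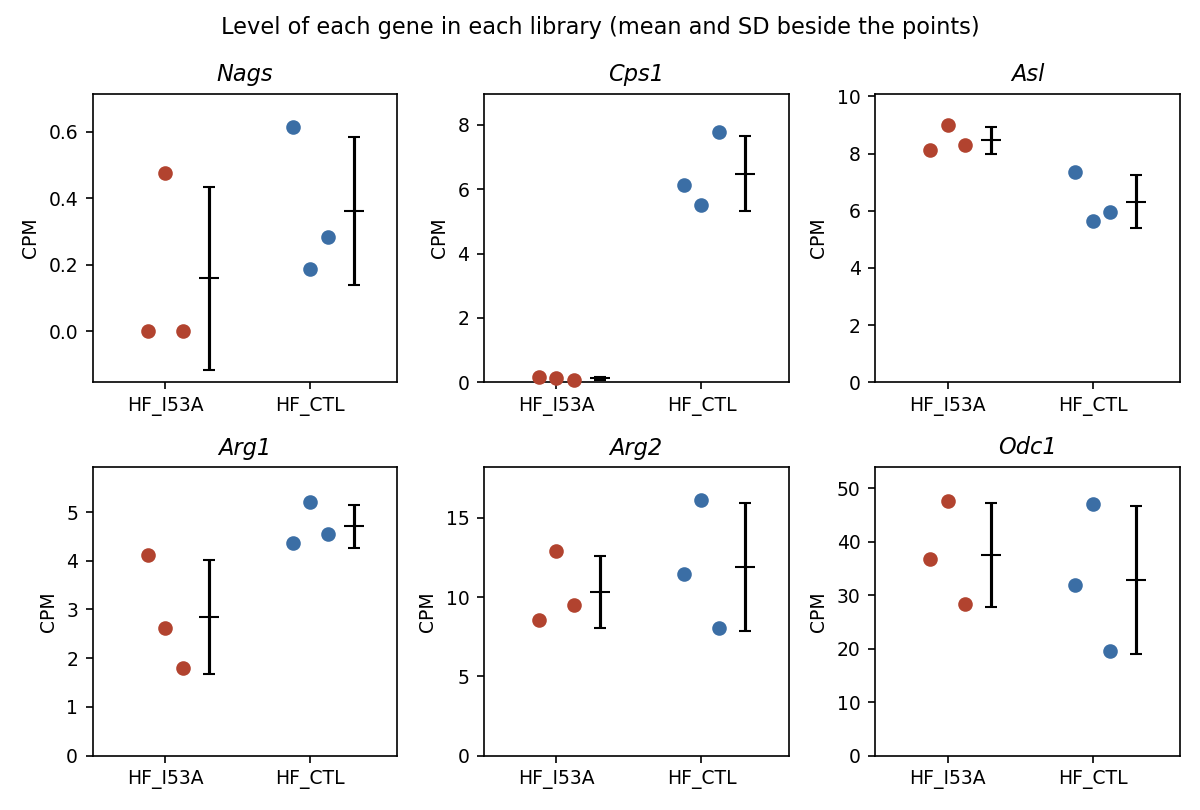
Level in CPM (y axis, linear, its range set for each gene) of the 6 genes with any reads, in each of the 3 HF_I53A libraries (left, red) and the 3 HF_CTL libraries (right, blue), with mean and SD in black beside the points. The HF_I53A points of Cps1 lie between 0.0669 and 0.164 CPM, under all HF_CTL points, while the points of Nags, Arg2 and Odc1 overlap between the groups.

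The next enzymes make and split arginine, and none of them was called by edgeR. Asl (chromosome 5, 130011258 to 130029247, minus strand), which splits argininosuccinate into arginine and fumarate, was at 8.11, 9.0 and 8.29 CPM in HF_I53A, against 7.36, 5.65 and 5.96 CPM in HF_CTL. All 3 mutant libraries lay above all 3 control libraries, by a narrow gap. Its log2 fold change of 0.42 (SE 0.29, 95% interval -0.24 to 1.08) did not pass the test (edgeR, adjusted p = 0.580).

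Arg1 (chromosome 10, 24915221 to 24927484, minus strand), the cytosolic arginase, was at 4.11, 2.62 and 1.80 CPM in HF_I53A, against 4.36, 5.21 and 4.54 CPM in HF_CTL. The mutant libraries were all below the control libraries, with mutant 1 close to the lowest control. Its log2 fold change of -0.72 (SE 0.45, 95% interval -1.72 to 0.28) did not pass the test (edgeR, adjusted p = 0.520). Macrophages are known to express Arg1, and the summed level of the leukocyte markers was lower in HF_I53A. Of these markers 12 of 12 had reads, and none was at 0 in all libraries. They summed to 30.5 to 34.3 CPM in HF_I53A and 54.8 to 56.0 CPM in HF_CTL. Most of that sum was Cd68, a lysosomal protein gene, at 21.6 ± 4.42 CPM in HF_I53A and 36.7 ± 7.77 CPM in HF_CTL (edgeR, adjusted p = 0.145, and 0.0190 with the replicate number as a block). Ptprc, which marks all leukocytes, was at 0.635 ± 0.119 CPM in HF_I53A and 1.72 ± 1.29 CPM in HF_CTL (adjusted p = 0.422). Of the 6 markers tested, 0 were called by edgeR and 6 had a negative log2 fold change, with a median of -0.69. Among them Csf1r changed least, at 3.27 ± 1.73 CPM in HF_I53A and 3.53 ± 1.44 CPM in HF_CTL (edgeR, adjusted p = 0.956). The part of such cells in the Arg1 values was not tested.

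Arg2 (chromosome 12, 79130777 to 79156301, plus strand), the mitochondrial arginase, was at 8.55, 12.9 and 9.49 CPM in HF_I53A, against 11.4, 16.1 and 8.06 CPM in HF_CTL. The groups overlap, and library 2 was the highest in both. Its log2 fold change was -0.20 (SE 0.32, 95% interval -0.93 to 0.52; edgeR, adjusted p = 0.847). Arg2 overlaps Vti1b on the other strand, so reads of the pair cannot be separated without a stated strand setting. Vti1b, a vesicle fusion gene, was at 12.3, 10.4 and 10.1 CPM in HF_I53A, against 9.88, 4.39 and 8.68 CPM in HF_CTL.

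Odc1 (chromosome 12, 17544794 to 17551505, plus strand), the first enzyme of polyamine synthesis, was at 36.8, 47.6 and 28.3 CPM in HF_I53A, against 32, 47.1 and 19.6 CPM in HF_CTL. The groups overlap almost fully, and library 2 was again the highest and library 3 the lowest in both. Its log2 fold change was 0.19 (SE 0.32, 95% interval -0.52 to 0.90; edgeR, adjusted p = 0.854). Of the stretches of 100 nucleotides in the Odc1 transcript, 19.6% also occur in 8 other annotated genes, the largest share of them in the pseudogene Gm17709, so its level is uncertain to that extent.

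Of the 7 enzymes beside Cps1, 4 passed the low-count filter and 0 were called by edgeR, where 3.0% of all tested genes were called. DESeq2 and limma-voom also called 0 of the 4, against 986 and 424 of all genes. At an unadjusted p under 0.05 in edgeR there were 0 of the 4, against 2143 of the 14345 genes tested. With the replicate block, which called 9.38% of all genes, 0 were called as well. Their log2 fold changes were positive for 2 and negative for 2, with a median of -0.0052 against -0.0033 over all genes tested. Libraries of the groups were separate for 2 of the 4, where 21.2% of all tested genes were separate: Asl was among the 12.1% separate and higher, Arg1 among the 9.15% separate and lower. The lowest bound of the 4 intervals was -1.72, for Arg1, and all 4 leave room for changes too small to be called here.

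**Figure D2:**
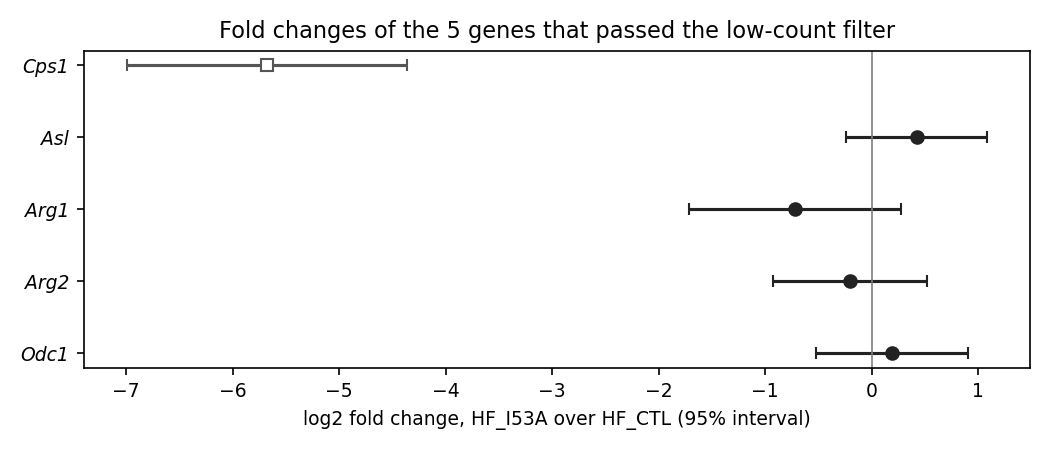
Log2 fold change of HF_I53A over HF_CTL (x axis) with its 95% interval from the edgeR fit for the 5 genes that passed the low-count filter; the open square is Cps1, the gene chosen from this comparison. The intervals of Asl, Arg1, Arg2 and Odc1 all include 0. That of Cps1 runs from -6.99 to -4.36 and makes no allowance for its choice.

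Levels of different genes were compared per kilobase of exon, with all annotated exons of a gene joined. This length can exceed that of any 1 transcript: Asl has 4.83 kb of joined exons, but its longest coding transcript has 2413 nucleotides. The closer ranks and the overlaps below depend on this choice of length. In HF_I53A the order of levels was Odc1 (11.04 ± 2.85 CPM per kb), Arg2 (7.22 ± 1.59), Asl (1.75 ± 0.0976), Arg1 (1.28 ± 0.525), Nags (0.0560 ± 0.0970) and Cps1 (0.0210 ± 0.00879). In HF_CTL it was Odc1 (9.66 ± 4.05 CPM per kb), Arg2 (8.32 ± 2.84), Arg1 (2.11 ± 0.200), Asl (1.31 ± 0.189), Cps1 (1.17 ± 0.210) and Nags (0.127 ± 0.0786). Odc1 and Arg2 overlapped with each other and stood above the rest in both groups. By exon length, Asl and Arg1 overlapped in HF_I53A and were separate in HF_CTL. Cps1 overlapped with Nags, at the bottom, in HF_I53A, and with Asl in HF_CTL. The ornithine-making Arg2 and the ornithine-using Odc1 were thus the highest transcripts of the 8 in both genotypes, with Ass1 not comparable.

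Genes around the cycle were examined as lists in the same fit. Of 8 tested genes of other arginine use (16 listed), 1 rose and 0 fell, where 2.59% of all tested genes rose, with a list median of 0.044. The one that rose was Ddah1, which breaks down methylated arginines to citrulline, at 50.3, 65.7 and 76.1 CPM in HF_I53A, against 11.7, 12.4 and 5.11 CPM in HF_CTL. Every mutant library was far above every control library. Its log2 fold change was 2.72 (SE 0.34, edgeR, adjusted p = 0.00277), and it was called in all 6 fits that leave out 1 library, with adjusted p up to 0.0148. Its relative Ddah2 was at 18 ± 4.81 CPM in HF_I53A and 14 ± 5.76 CPM in HF_CTL (adjusted p = 0.723). Nitric oxide synthases also release citrulline from arginine, and the levels of Nos2, at 0.519 ± 0.309 CPM in HF_I53A and 0.136 ± 0.236 CPM in HF_CTL, and of Nos3, at 0.542 ± 0.277 CPM in HF_I53A and 0.296 ± 0.265 CPM in HF_CTL, were too low to be tested.

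Of 15 tested polyamine genes (19 listed), 0 were called by edgeR, 12 had a positive log2 fold change, and the median was 0.23. With the replicate block 4 rose, where 6.09% of all genes rose: Azin2, Atp13a3, Eif5a2 and Smox. Azin2, an antizyme inhibitor that protects ODC1, was at 10.2, 14.8 and 8.96 CPM in HF_I53A, against 4.57, 5.77 and 3.46 CPM in HF_CTL. The groups were separate, and the log2 fold change was 1.30 (SE 0.34, edgeR, adjusted p = 0.0827, and 0.0222 with the block). Atp13a3, a polyamine transporter, was at 650 ± 36.8 CPM in HF_I53A and 490 ± 16.4 CPM in HF_CTL, also separate (0.41, SE 0.13, adjusted p = 0.162, and 0.0192 with the block). Eif5a2, a relative of the translation factor that carries the spermidine-derived residue hypusine, was at 27.8 ± 3.79 CPM in HF_I53A and 12.5 ± 8.33 CPM in HF_CTL (adjusted p = 0.240, and 0.0320 with the block). Smox, spermine oxidase, was at 56.4, 53.9 and 143 CPM in HF_I53A, against 36.3, 44.2 and 68.9 CPM in HF_CTL, with overlap and mutant 3 far above the others (adjusted p = 0.411, and 0.0365 with the block). Without the block, 0 of these 4 were called in any edgeR fit that left out 1 library. In those fits the log2 fold change ran from 0.14 (without mutant 3) to 1.08 for Smox, and from 0.77 to 1.78 for Eif5a2. Amd1, which makes the propylamine donor for spermidine and spermine, had 2 reads in all, but 76.4% of its stretches of 100 nucleotides also occur in other annotated genes, mostly Amd2, which had 0 reads, so its level is uncertain too.

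Carriers and partners that feed the cycle in mitochondria were counted in both genotypes. Of 9 tested (10 listed), 0 were called, 7 had a positive log2 fold change, and the median was 0.42. Slc25a15, the main mitochondrial ornithine carrier, was at 13.1 ± 2.06 CPM in HF_I53A and 9.58 ± 3.50 CPM in HF_CTL (edgeR, adjusted p = 0.601), and its relative Slc25a2 at 1.68 ± 0.601 CPM in HF_I53A and 0.701 ± 0.284 CPM in HF_CTL (adjusted p = 0.444). Slc25a12, an aspartate and glutamate carrier, was at 25.6 ± 4.95 CPM in HF_I53A and 19.1 ± 3.17 CPM in HF_CTL (adjusted p = 0.472), and Slc25a22, a glutamate carrier, at 14.1 ± 1.90 CPM in HF_I53A and 10.4 ± 3.11 CPM in HF_CTL (adjusted p = 0.558). Car5b, a carbonic anhydrase that supplies bicarbonate, was at 1.64, 0.656 and 2.87 CPM in HF_I53A, against 1.77, 11 and 1.76 CPM in HF_CTL, where control 2 stood far above all others (adjusted p = 0.462).

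At the plasma membrane, 8 genes of the transport of arginine and other amino acids were tested (9 listed), 0 were called, and the median was 0.084. Slc7a1, the main cationic amino acid transporter, was at 381 ± 28.3 CPM in HF_I53A and 414 ± 45.4 CPM in HF_CTL (log2 fold change -0.12, edgeR, adjusted p = 0.797). Slc7a2, of the same kind, was at 186 ± 92.2 CPM in HF_I53A and 244 ± 65 CPM in HF_CTL (adjusted p = 0.707). Slc7a6, an exchanger of arginine and neutral amino acids, was at 28.2, 31.4 and 35.6 CPM in HF_I53A, against 23.8, 17.6 and 18.1 CPM in HF_CTL, and the groups were separate (0.68, SE 0.21, adjusted p = 0.143). In the wider Slc7 family, 11 of 15 were tested, 1 rose and 1 fell, where 2.59% of all tested genes rose and 0.404% fell, and both carry neutral amino acids. The one that fell, Slc7a8, is itself among the 8 largest falls from which Cps1 was taken. Slc7a10 had 87, 155 and 163 reads in HF_I53A, against 2, 0 and 0 reads in HF_CTL (adjusted p = 0.00218), and Slc7a8 was at 7.81 ± 3.36 CPM in HF_I53A and 46.1 ± 16.8 CPM in HF_CTL (-2.57, adjusted p = 0.00630).

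**Figure D3:**
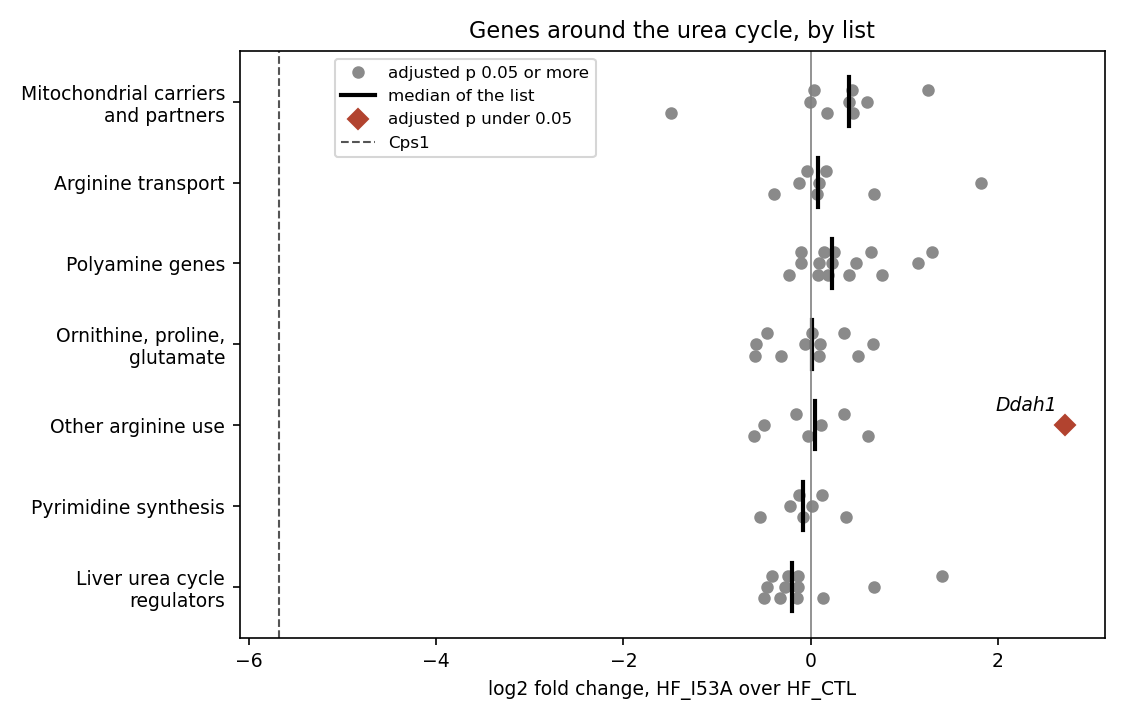
Log2 fold change of HF_I53A over HF_CTL (x axis) for every tested gene of 7 lists around the urea cycle, 1 list per line; the black bar is the list median, the red diamond a called gene, grey points genes that were not called, and the dashed line the value of Cps1. Ddah1 at 2.72 is the one called gene, and the lowest point, Car5b at -1.49, is far from the -5.68 of Cps1.

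Carbamoyl phosphate is also made in the cytosol for pyrimidines, by the multienzyme protein CAD. All 7 genes of that list were tested, 0 were called by edgeR, and the median log2 fold change was -0.084. Cad was at 64, 73.5 and 54.6 CPM in HF_I53A, against 97.2, 113 and 69.3 CPM in HF_CTL, with overlap (-0.54, SE 0.21, adjusted p = 0.264, and 0.0327 with the block, where 3.29% of all genes fell). Among 11 tested genes of ornithine, proline and glutamate conversion (12 listed), 0 were called by edgeR, and the median was 0.016. Glul, which fixes ammonia into glutamine, was at 83.5 ± 15.6 CPM in HF_I53A and 126 ± 66.6 CPM in HF_CTL (adjusted p = 0.456), and Pycr1, of proline synthesis, at 3.36 ± 0.202 CPM in HF_I53A and 5.03 ± 1.09 CPM in HF_CTL (adjusted p = 0.553).

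Transcription factors known to drive urea cycle genes in liver were taken as a further list. Of 12 tested (17 listed), 0 were called by edgeR, 9 had a negative log2 fold change, and the median was -0.19. Cebpa, a factor of Cps1 transcription in liver, was at 30.6, 33.3 and 49.7 CPM in HF_I53A, against 33.6, 24.4 and 45.2 CPM in HF_CTL, and the groups overlap (adjusted p = 0.884). Nr3c1, the glucocorticoid receptor, was at 127, 140 and 114 CPM in HF_I53A, against 164, 169 and 172 CPM in HF_CTL, with separate groups (-0.41, SE 0.15, adjusted p = 0.208, and 0.0496 with the block). Nfya, a subunit of the CCAAT-binding factor, was at 79.9 ± 15.1 CPM in HF_I53A and 110 ± 17.3 CPM in HF_CTL (adjusted p = 0.307, and 0.0334 with the block). Sp1, a GC box factor, was at 408 ± 12 CPM in HF_I53A and 493 ± 13.1 CPM in HF_CTL, with separate groups (adjusted p = 0.369). The hepatocyte factors Foxa2 and Hnf4a had 0 and 13 reads over the 6 libraries.

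Cps1 is best known from liver and intestine, so markers of those cells were summed beside it. Of 11 hepatocyte markers 6 had reads, summing to 0.334 to 0.894 CPM in HF_I53A and 0.314 to 1.36 CPM in HF_CTL, with Ttr, Afp, Tat, Serpina1a and Ahsg at 0 and Alb at 1 read. Each control sum was below the level of Cps1 in every control library. Of 8 enterocyte markers 6 had reads, summing to 2.01 to 5.21 CPM in HF_I53A and 5.68 to 7.70 CPM in HF_CTL, with Fabp1 and Cdx1 at 0. The groups were separate in this sum, and the control sums lay within the range of Cps1 in the controls, 5.52 to 7.78 CPM. The largest of these enterocyte markers in the controls was Vil1, a microvillus protein gene, at 1.40 ± 1.24 CPM in HF_I53A and 4.53 ± 1.51 CPM in HF_CTL (edgeR, adjusted p = 0.281). Of 14 sebocyte markers 13 had reads, with Awat1 at 0, summing to 249 to 334 CPM in HF_I53A and 237 to 374 CPM in HF_CTL, and of 11 tested 2 fell, Fa2h and Pparg, where 0.404% of all tested genes fell. Both are among the 8 largest falls from which Cps1 was taken, so nothing is read from this count. Fa2h was no longer called by edgeR without mutant 1 or mutant 2 (adjusted p = 0.0588 and 0.0731), nor Pparg without mutant 2, control 1 or control 2 (adjusted p = 0.0684, 0.0578 and 0.0803), and limma-voom on all 6 libraries called neither (adjusted p = 0.128 for Fa2h and 0.0588 for Pparg). The leukocyte sum given beside Arg1 was lower in the mutants too. The part of any of these cells in the Cps1 values was not tested.

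Genes with a profile like that of Cps1 were ranked by the root mean square difference of log2 CPM, each relative to its HF_CTL mean, over the 6 libraries. The 5 closest were Cyp2g1 (a cytochrome P450 gene, difference 0.770), Skint9 (an immunoglobulin family gene, 0.833), Fa2h (a fatty acid hydroxylase gene, 1.19), Abi3bp (a matrix protein gene, 1.28) and Pparg (a nuclear receptor gene of fat and sebaceous cells, 1.35). Over 2 groups, this measure mainly finds genes with a fall of like size. Cyp2g1 was at 0.164, 0.596 and 0.134 CPM in HF_I53A, against 9.33, 23.9 and 8.97 CPM in HF_CTL, with control 2 above the other controls. All 5 are among the 8 largest falls from which Cps1 was taken. None belongs to the arginine lists, and nothing is read from this, because the measure selects large falls.

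Within 1 Mb of the start of Cps1, 7 other protein-coding genes start, all upstream of it, and 6 were tested. Map2, a microtubule protein gene best known from neurons whose start lies at -947.8 kb (upstream), was at 19.1, 23 and 16.2 CPM in HF_I53A, against 6.34, 6.28 and 8.68 CPM in HF_CTL and rose (1.45, SE 0.27, edgeR, adjusted p = 0.0188). That call held in 2 of the 6 edgeR fits that leave out 1 library, and the adjusted p of Map2 was 0.0731 without mutant 1, 0.108 without mutant 2, 0.0899 without control 1 and 0.0615 without control 2. The nearest gene, Lancl1, a glutathione-binding protein gene, starts at -84.2 kb and was at 39.1 ± 2.71 CPM in HF_I53A and 49.1 ± 8.32 CPM in HF_CTL (-0.33, SE 0.19, adjusted p = 0.489). Kansl1l, at -305.5 kb, was at 105 ± 16.7 CPM in HF_I53A and 158 ± 3.02 CPM in HF_CTL, with separate groups (-0.58, SE 0.16, adjusted p = 0.0988, and 0.0169 with the block). Unc80, a sodium leak channel gene, had the lowest value of the 6 at -2.13, but its level was 0.548, 0.477 and 0.468 CPM in HF_I53A, against 0.750, 0.753 and 5.11 CPM in HF_CTL, so control 3 alone stood high (adjusted p = 0.294). The median of the 6 was -0.36.

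**Figure D4:**
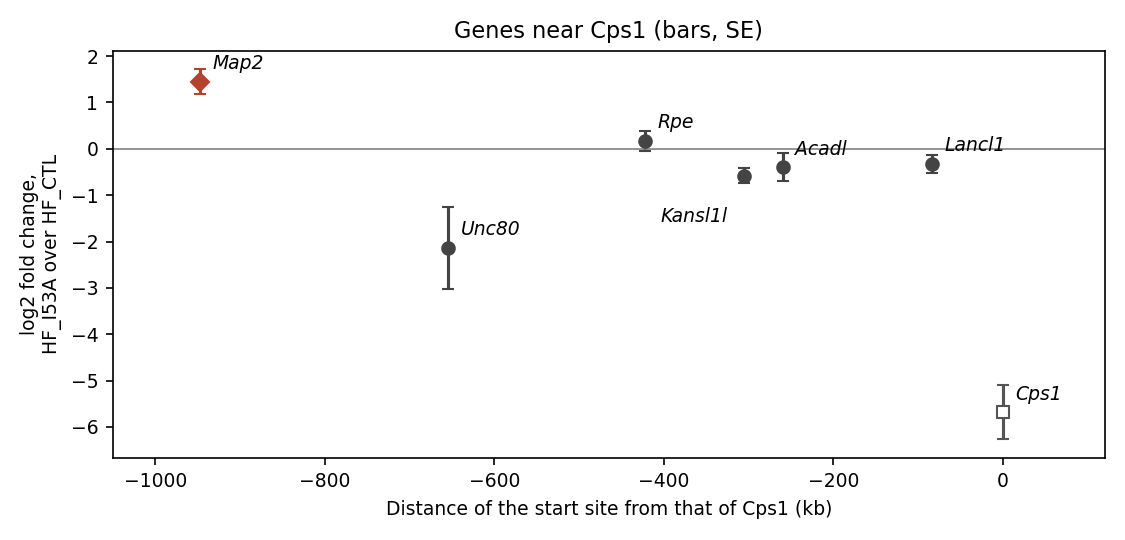
Log2 fold change of HF_I53A over HF_CTL (y axis, bars are SE) of the 6 tested protein-coding genes within 1 Mb of Cps1, by the distance of their start site from that of Cps1 in kb (x axis, upstream to the left). Map2 (red diamond, called) lies above 0 at 1.45, and Lancl1, Acadl and Kansl1l lie between -0.58 and -0.33. Unc80 is the lowest of the 6 at -2.13, with control 3 alone high, and Cps1 (open square) lies at -5.68.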

How the data were processed

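The authors deposited raw counts of reads for each gene symbol as whole numbers, in 1 file for each of 6 libraries. Per the labels' protocols, 10 ng of total RNA was amplified before library construction and read as single reads of 100 nucleotides. Per the submitters' processing notes, the tools were HTSeq 0.6.1, Cufflinks 2.2.1, TopHat2 2.0.13 and DESeq2 1.6.3, with mm10, in no stated role; the sources used here give neither the strand setting nor the annotation release. The labels name no separate animals, so p-values measure the spread between these libraries, which may be technical.

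Counts were compared with edgeR 4.0.16 (R 4.3.3; quasi-likelihood test, two-sided; TMM; filterByExpr, minimum count 10; group as the only term), adjusted by Benjamini-Hochberg over the 14345 genes tested and called under 0.05. The scripts were tested on simulated data. Alternatives were 3 other scalings, 2 other filters, DESeq2 1.42.0, limma-voom (limma 3.58.1), a replicate block and leaving out each library. Coordinates, exon lengths and transcripts come from GENCODE M21 (GRCm38); a shared stretch is an exact match. Intervals and floors from counts cover counting error only.

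Both groups use replicate numbers 1 to 3. Libraries with the same number deviated together (correlation of deviations from group means 0.168 to 0.363, above the set limit of 0.1; at most 0.0891 between different numbers), so the numbers were taken to pair the libraries, from the data alone. No label states this pairing, and every p-value given with the block comes from the same counts that chose it.

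The members and lists were chosen with earlier results of these data known. Named genes are the members, the targeted and sort genes, up to 4 genes per list (called first, then by smallest p), the 5 most like Cps1 and its neighbours. Others (Vti1b, Ptprc, Csf1r, Ddah2, the nitric oxide synthases, Amd1, Amd2, Slc25a15, Cebpa, Hnf4a, Foxa2, Alb) were named after their values were seen. An item that this rule names and a sequence are not reported here.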

Additional observations from a re-analysis of the deposited data

How the results depend on the processing

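Under all 14 alternatives 0 of the members beside Cps1 were called, with edgeR, DESeq2 or limma adjusted p from 0.330 to 0.997 over Asl, Arg1, Arg2 and Odc1, and Asl and Arg1 kept their direction in all 14. With 1 library left out, the log2 fold change ran from -5.99 (without mutant 1) to -5.44 for Cps1, from -0.41 to 0.079 for Arg2 (positive without control 2), and from -0.065 to 0.54 for Odc1 (negative without control 3, and at -0.013 without mutant 2). It also changed sign for genes that were called in none of these fits: Epcam ran from -0.010 (without mutant 3) to 0.46, Itga6 from -0.24 to 0.32 (negative without mutant 3, control 1 or control 2, at -0.027 and -0.12 for the controls), and Cebpa from -0.11 to 0.39 (negative without mutant 3, and at -0.063 without control 2). The count of all genes called was 430, against 163 (without mutant 2) to 664 (without control 3) with 1 library left out, 986 with DESeq2 and 1345 with the replicate block. Pairing by the block left Cps1 at -5.67 and changed no call of a member. The causes were not tested. Depth limits Nags, Otc and the mutant level of Cps1, where 0 to 9 reads per library set the value.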
